A study of Drosophila melanogaster with 17 samples.

Results

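Ribosome-bound RNA of glia was compared between uninjured flies on day 3 and on day 1 after sham handling, as the reference against which glial change after TBI (traumatic brain injury) is read. The comparison used 6 of the 17 libraries of the series, namely the 3 sham libraries of each of these days, and was made across all genes of the table. The whole study set flies that had received dCHI, a controlled strike to the head, against sham flies on days 1, 3 and 7. Both groups carried the pan-glial driver repo-GAL4 and UAS-GFP::RpL10A, which puts a GFP-tagged ribosomal protein into all cells that express the driver, and all flies were collected at ZT0, the time of lights-on. Sham flies came from the same parents as injured flies and were handled without a real strike. The methods describe young adults of 3 to 7 days at the start of experiments. The sample labels number the days 3, 6 and 10, whereas the paper's methods number them 1, 3 and 7, and the numbers of the paper are used here. The labels give the flies as female and the methods as male. Flies on day 3 were older and further from handling than flies on day 1, so that age, time since handling and any difference between collection days cannot be told apart.

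Glia are the support cells of the fly nervous system. Astrocyte-like glia take up and recycle neurotransmitters, surface glia form the blood-brain barrier and carry sugars across it, ensheathing and cortex glia wrap axons and cell bodies, and all of them help to clear debris and mount local immune responses. In TRAP-seq (translating ribosome affinity purification), the tagged ribosomes are pulled down from head lysate with an antibody to GFP, so that the mRNAs on them can be sequenced. Untagged ribosomes and free RNA of other head tissues can stick to the beads, and the pulldown is therefore enriched for glial mRNA and not pure.

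Values were TPM, in which the reads of each gene are divided by transcript length and scaled to a common library total. The table listed 13479 genes, which added up to between 842896 and 854953 TPM in the 6 libraries, with 9880 to 10414 genes above 0. Since TPM hold no depth, counting error is unknown and the spread between libraries was the only measure of error. The methods call the replicates biological without saying whether they were separate cultures, so p-values measure the spread between these libraries, part of which may be technical.

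Glial transcripts were present in all 6 libraries. Among the defining markers, alrm, an astrocyte gene, had 524 ± 105 TPM on day 1 and 415 ± 30.7 TPM on day 3 (SD, n = 3 each). The transcription factor gene repo, which marks nearly all glia, had 66.1 ± 16.4 and 49.8 ± 2.59 TPM. Transcripts of other head tissues were present as well. The rhodopsin gene ninaE of photoreceptors lay between 38970 and 47490 TPM, and the neuronal gene elav between 53.5 and 133 TPM. Fat body transcripts were also present, since the yolk protein gene Yp1 reached 15980 TPM. Yp2 and Fbp1, further fat body markers, were listed at or near 0. Hemocyte markers were low, with Hml, NimC1, Pxn and eater each averaging at most 4.70 TPM on day 1.

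One library stood apart from the others. In sham day 3 replicate 2, 163 genes were at least 4-fold above each of the other 5 libraries, against 0 to 4 genes in any other library. Its correlation with the others on log2(TPM + 1), taken over genes that are not independent of each other, was 0.919 to 0.938, against 0.958 to 0.975 among the other 5. The 163 genes held 15 digestive protease genes and 13 genes of a list of germline and egg genes, the latter put together after the values were seen. The trypsin gene alphaTry had 402 TPM in this library and betaTry had 117 TPM, whereas betaTry was listed at 0 in the other 5. The female germline thioredoxin gene dhd had 558 TPM there and at most 1.21 TPM in the other 5, and RpS5b, a ribosomal protein gene with a germline role, had 215 TPM. The digestive protease list added up to 1009 TPM in this library and to between 130 and 176 TPM in the other 5, and the germline list to 1058 TPM against 5.30 to 8.17 TPM. Furthest above the other 5 was whe, with 1650 TPM against at most 2.40 TPM, and lcs had 605 TPM against at most 5.15 TPM. The paper names whe and lcs among genes strongly up-regulated after TBI. In the 3 TBI day 1 libraries whe had 2034, 1481 and 894 TPM. Of the 163 genes, 156 were also at least 4-fold above every day 1 sham library in TBI day 7 replicate 1, and 61 were so in all 3 TBI day 1 libraries. How many of all genes tested were so was not counted, so these counts have no background beside them. Values below include this library, and where leaving it out moved a list's median or a named gene's difference by over 1.5 times or turned its sign, the value without it is given as well.

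**Figure D1:**
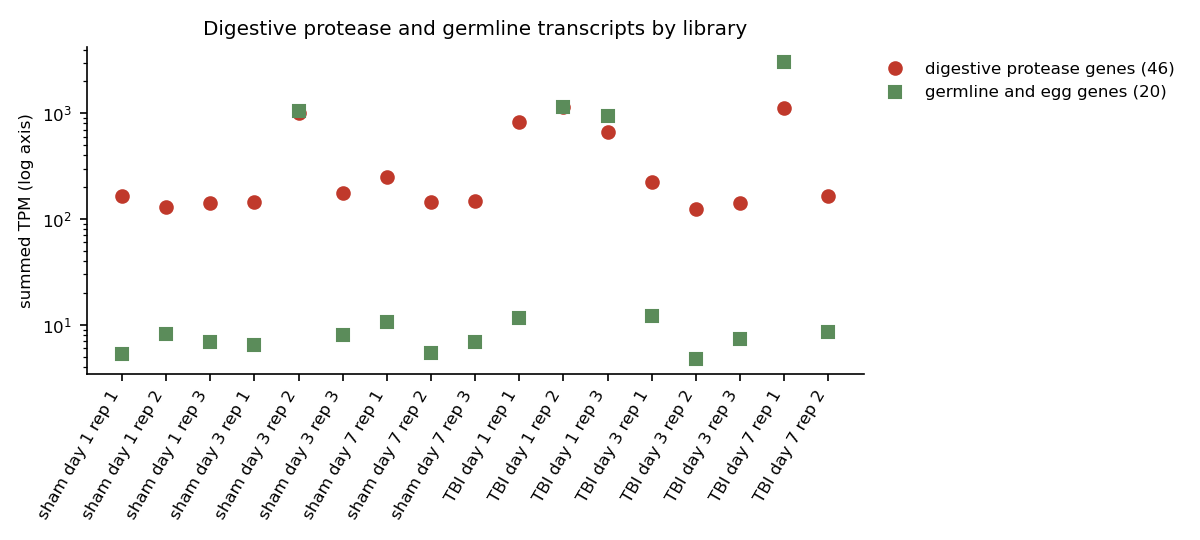
Summed TPM (log axis) of 46 digestive protease genes (circles) and 20 listed germline and egg genes (squares) in each of the 17 libraries. Sham day 3 replicate 2 lies at 1009 and 1058 TPM, while the other 5 libraries of the comparison stay between 130 and 176 TPM for digestive proteases and at or under 8.17 TPM for germline genes.

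No gene passed the test between day 3 and day 1 in uninjured flies. By the limits of the study, a gene was called when its log2 fold change reached 0.6 in size and its limma p, adjusted by the Benjamini-Hochberg method, did not exceed 0.1, and 0 of 8766 genes tested were called (0%). The adjusted p was 1 for every gene. At an unadjusted p under 0.05 there were 223 genes (2.54%), of which 69 were higher (0.787% of all tested) and 154 were lower (1.76%). This share was under the 0.05 that such a threshold lets through on average when no gene changes. The 154 lower genes were 69.1% of the 223, but this split depended on the scaling and on single libraries. With upper-quartile factors 132 of 278 such genes were lower (47.5%), with median-of-ratios factors 146 of 298 (49.0%), and without sham day 3 replicate 1 97 of 258 (37.6%). The groups did not overlap for 650 genes (7.42%), of which 228 were higher (2.60%) and 422 lower (4.81%) on day 3. Without sham day 3 replicate 2, where 2 libraries stand against 3, the numbers were 1106 (12.6%), 423 (4.83%) and 683 (7.79%). Other fits called between 0 and 3 genes. Without sham day 3 replicate 2 the count was 0 with the other 16 libraries in the fit and 2 with only the remaining 5 sham libraries of these days, and it was 1 without sham day 1 replicate 3, namely atms. The lowest p of all, 0.000141, was that of CG11041, a scarce transcript with 2.28, 3.38 and 1.80 TPM on day 1 and 0.417, 0.349 and 0 TPM on day 3.

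The data bound the change for well-expressed genes. Across the 8766 genes the median log2 fold change, day 3 minus day 1, was -0.05 and the median SE was 0.29. For the 5203 genes with a mean of at least 10 TPM over the 6 libraries, the 95% interval of the change lay within 1 on the log2 scale on either side of 0 for 4299 genes (82.6%). It lay within 0.6, the calling threshold, for 1556 genes (29.9%), so that for most genes a change of that size was not excluded by its interval.

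The genes of lowest p that were lower on day 3 held several transporters and metabolic enzymes, though how common such genes are among all genes was not counted. The 12 of lowest p among genes averaging 10 TPM or more, with no overlap between the groups, were MFS9, Gat, CG3270, Men, slow, CG7694, pippin, ltl, CG5404, CG10621, CG40470 and Ect3, with unadjusted p from 0.000281 to 0.00587 in limma. None passed after adjustment. Their differences ran from -2.45 to -0.53 on the log2 scale.

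Gat encodes the GABA transporter of astrocyte-like glia, and lies on chromosome 4 from 629691 to 635350 (release 6). Its level was 257, 259 and 198 TPM on day 1 and 154, 146 and 143 TPM on day 3. Every day 3 library lay below every day 1 library, with a log2 fold change of -0.68 (SE 0.16) and an unadjusted p of 0.000881. On day 7 the sham libraries had 175, 131 and 139 TPM, which compares with the same day 1 libraries. MFS9, a gene of the major facilitator transporter family on chromosome 3R from 20507392 to 20512468, had 222, 230 and 175 TPM on day 1 and 128, 129 and 94.5 TPM on day 3. The groups were again separate, and the difference was -0.84 (SE 0.18).

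The enzyme genes in this group were lower by similar amounts. Men, which encodes the NADP-dependent malic enzyme, had 107, 92.4 and 95.0 TPM on day 1 and 67.2, 63.1 and 69.0 TPM on day 3, a log2 fold change of -0.55 (SE 0.15). The beta-galactosidase gene Ect3 had 77.4, 85.1 and 70.5 TPM and then 42.1, 51.3 and 62.1 TPM. The day 3 values of both genes lay under all of their day 1 values. The sugar transporter gene pippin, on chromosome 2R from 23812185 to 23818327, had 88.5, 72.7 and 62.4 TPM on day 1 and 50.2, 41.4 and 48.7 TPM on day 3. Its carrier is expressed in glia of the blood-brain barrier, and its difference was -0.65 (SE 0.19).

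The remaining lower genes are less well characterised. For slow, the level was 36.1, 34.2 and 33.5 TPM on day 1 and 21.3, 22.5 and 19.4 TPM on day 3, with a clear gap between the groups. CG7694 had the largest difference, -2.45 (SE 0.70), with 21.1, 19.0 and 14.1 TPM on day 1 and 4.90, 0 and 5.94 TPM on day 3. The value of 0 fell in replicate 2, and without that library the difference was -1.56. For CG3270, ltl, CG5404, CG10621 and CG40470 the differences were -0.68, -0.61, -0.90, -1.01 and -0.53.

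The 12 corresponding genes that were higher on day 3 had higher p-values and mostly low levels. They were CG14105, CG34253, Bin1, mRpS18C, CG13067, CG42367, Cpr100A, CG6421, Obp83ef, Tsp29Fb, CG32726 and Nacalpha, with unadjusted p from 0.00316 to 0.0285 and day 1 means between 5.87 and 63.5 TPM. None passed after adjustment, and their differences ran from 0.45 to 1.16.

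CG14105, on chromosome 3L from 13425891 to 13426673, had 10.2, 7.13 and 4.97 TPM on day 1 and 15.2, 12.4 and 13.6 TPM on day 3. The log2 fold change was 0.84 (SE 0.24), and the groups were separate. Bin1, a subunit of a histone deacetylase corepressor complex, had 12.3, 6.84 and 14.9 TPM on day 1 and 15.1, 28.7 and 37.5 TPM on day 3. Here the lowest day 3 library was almost level with the highest day 1 library, and the difference of 1.16 (SE 0.35) was the largest of the 12. Nacalpha, which encodes a subunit of the nascent polypeptide-associated complex on ribosomes, had 6.60, 4.37 and 6.65 TPM and then 16.6, 18.4 and 7.69 TPM. Day 3 replicate 3 was close to day 1, whereas replicates 1 and 2 were well above it.

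The others of the 12 included genes of secreted, cuticular and membrane proteins. The odorant binding protein gene Obp83ef had 15.1, 13.6 and 14.6 TPM on day 1 and 18.0, 22.5 and 19.8 TPM on day 3. The tetraspanin gene Tsp29Fb had 12.9, 10.3 and 11.5 TPM and then 17.4, 19.6 and 20.0 TPM. Cpr100A, a cuticle protein gene, differed by 0.66, and mRpS18C, a gene of the mitochondrial ribosome, by 0.54. The groups did not overlap in any of these 4 genes, as the rule for naming them required.

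**Figure D2:**
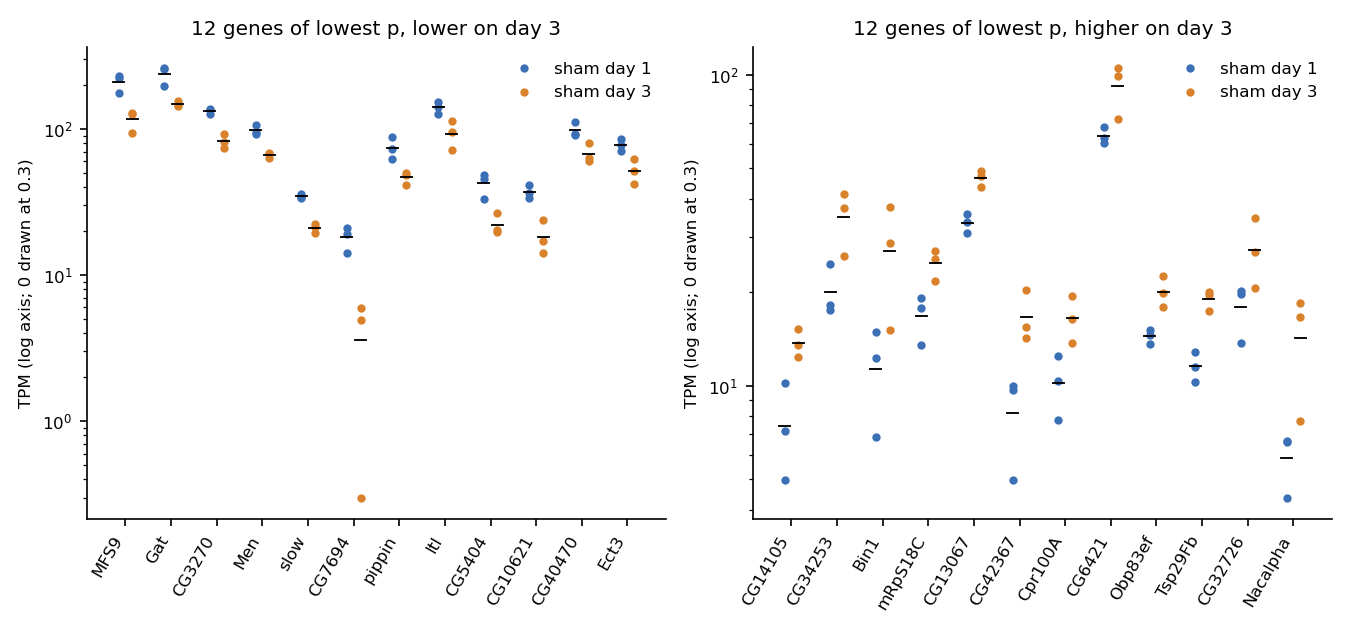
TPM (log axis) of the 12 genes of lowest p that were lower on day 3 (left) and the 12 that were higher (right) in the 3 sham day 1 libraries (blue) and the 3 sham day 3 libraries (orange), with black bars at the group means. The groups do not overlap in any of the 24 genes, which was a condition for choosing them, and no gene passed the adjusted threshold.

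Glial markers were lower on day 3 as a list, without a call for any member. Of 22 pan-glial and subtype markers, 21 had a log2 fold change below 0, against 57.5% of all genes tested. The list's median was -0.43, against -0.05 for all genes tested, and lay between -0.53 and -0.28 over the alternatives, with -0.28 when sham day 1 replicate 1 was left out. Members that were lower at an unadjusted p under 0.05 numbered 6 of 22, and members whose day 3 libraries all lay below day 1 numbered 7 of 22 (31.8%). Over all genes tested these shares were 1.76% and 4.81%. In the lists described below, counts below 0 compare with the same 57.5% of all genes tested, and counts above 0 with 42.1%. The glial list's summed level was 7510, 7556 and 5309 TPM on day 1 and 4601, 4477 and 5316 TPM on day 3. Replicate 3 of day 3 was thus about level with replicate 3 of day 1, and the other day 3 libraries lay below all of day 1. In a pulldown from whole heads, fewer glial cells, less RNA per glial cell and a lower share of glial RNA in the pulldown cannot be told apart.

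Gs2, which encodes the glial glutamine synthetase that turns glutamate taken up by astrocytes into glutamine, was the most abundant of these markers. It had 3896, 4145 and 2724 TPM on day 1 and 2246, 2203 and 2769 TPM on day 3, with a log2 fold change of -0.56 (SE 0.18). Its day 3 replicate 3 lay just above its day 1 replicate 3, so the groups overlapped. The cortex and wrapping glia gene wrapper had 76.6, 78.8 and 78.4 TPM on day 1 and 49.2, 57.4 and 62.3 TPM on day 3, with no overlap. The sodium pump subunit gene nrv2 had 962, 819 and 612 TPM and then 542, 573 and 600 TPM, also with no overlap. By contrast, the differences of Gli and moody, genes of the blood-brain barrier, were smaller at -0.21 and -0.20, and that of Gfat1 was above 0 at 0.25.

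Genes of transmitter synthesis and transport, a list that shares Gat, Gs2, Eaat1 and Eaat2 with the glial markers, had a median of -0.34. Of 24 members tested, 23 were below 0, with 3 lower and 1 higher at an unadjusted p under 0.05. Over all genes tested 1.76% were lower and 0.787% higher at that threshold. Beside Gat and Gs2 the lower ones included Gabat, the GABA transaminase gene, at -0.52. The member above 0 was Gdh, the glutamate dehydrogenase gene, at 0.97. Without sham day 3 replicate 2 the list's median was -0.21, and without sham day 1 replicate 3 or sham day 3 replicate 1 it was -0.52.

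Neuronal markers were below 0 too, at 17 of 17 genes with a median of -0.32, and limma gave 0 of them an unadjusted p under 0.05. Their median was -0.16 without sham day 3 replicate 2, with 3 of 17 then above 0. The pan-neuronal RNA-binding protein gene elav had 92.2, 133 and 105 TPM on day 1 and 53.5, 74.9 and 106 TPM on day 3, so that replicate 3 was level with day 1. Syx1A, a syntaxin gene of the synaptic release machinery, had 51.7, 116 and 91.4 TPM and then 6.96, 57.2 and 95.8 TPM. For both genes the groups overlapped. Neuropeptide genes had a median of -0.20, with 23 of 25 below 0, which became -0.13 with 17 of 25 below 0 when sham day 3 replicate 2 was left out. In this list AstA (allatostatin A) at -0.62 and CCHa2 at -0.40 had no overlap, which is 8.0% of members, against 4.81% of all genes tested. In photoreceptor and eye genes the median was -0.15, and -0.10 without that library. The carotenoid genes santa-maria and ninaB were at -0.61 and -0.44 there, while ninaE differed by 0.08.

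Yolk protein and head fat body genes were mostly lower on day 3. Of 13 tested, 12 were below 0 and 0 above, with a median of -0.28. Leaving out 1 library moved the median between -0.62 (without sham day 3 replicate 1) and -0.17 (without sham day 1 replicate 1), with -0.55 and -0.48 without sham day 1 replicates 3 and 2. At an unadjusted p under 0.05, 3 of the 13 were lower, namely fit, apolpp and Yp3, against 1.76% of all genes tested. The gene fit, which encodes a female-enriched satiety peptide of the fat body, lies on chromosome 3R from 21883924 to 21884454. It had 146, 83.3 and 124 TPM on day 1 and 70.5, 67.8 and 37.3 TPM on day 3, a log2 fold change of -1.01 (SE 0.33). The lipophorin gene apolpp, the main lipid carrier of the hemolymph, had 284, 244 and 150 TPM and then 142, 109 and 114 TPM. In both genes all day 3 libraries were below day 1. Yp3 had 5717, 3332 and 5914 TPM on day 1 and 3496, 2669 and 1556 TPM on day 3, where day 3 replicate 1 lay above day 1 replicate 2.

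Genes of carbohydrate transport and use included members of the glial list. Tret1-1, a trehalose transporter gene of the blood-brain barrier, had 394, 395 and 396 TPM on day 1 and 306, 254 and 328 TPM on day 3. The day 1 libraries were nearly identical and all day 3 libraries lay below them, with a difference of -0.42 (SE 0.16). Hex-A, a hexokinase gene, was at -0.35. Of 21 genes of glycolysis, trehalose and lactate handling, 18 were below 0, with a median of -0.17, which was -0.07 without sham day 1 replicate 1. The insulin signalling list was at -0.16 (-0.09, -0.33 and -0.25 without sham day 1 replicate 1, day 1 replicate 3 and day 3 replicate 1), and within it tobi, an alpha-glucosidase gene under insulin-like control, was at -1.31 and S6k at -0.35.

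Immune and stress peptide genes were on the other side of 0. Of 16 antimicrobial peptide genes, 12 were above 0, with a median of 0.39, yet limma gave 0 of them an unadjusted p under 0.05 and the groups overlapped for all 16. The shift rested on single libraries, since the median was 0.05 without sham day 1 replicate 2 and again without sham day 3 replicate 1, 0.22 without sham day 3 replicate 3 and 0.61 without sham day 1 replicate 3. Def (defensin) had 0.529, 3.14 and 3.13 TPM on day 1 and 1.74, 6.80 and 9.40 TPM on day 3. CecA2 (a cecropin) had 0, 0 and 0.715 TPM and then 3.02, 0.556 and 2.48 TPM. The peptide genes varied widely between libraries of a day, as Drs (drosomycin) shows with 18.6, 39.0 and 24.0 TPM on day 1 and 19.2, 170.0 and 25.5 TPM on day 3. Their summed level was 1605 to 2681 TPM on day 1 and 1840 to 3217 TPM on day 3.

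The 4 Turandot genes tested, which encode secreted stress peptides, were all above 0 with a median of 0.42, which was 0.24 without sham day 3 replicate 3. Of the 4, 2 were higher without overlap, against 2.60% of all genes tested. TotA had 122, 121 and 88.9 TPM on day 1 and 142, 155 and 294 TPM on day 3, a log2 fold change of 0.76 (SE 0.40). TotX had 17.1, 15.4 and 15.1 TPM and then 19.9, 21.6 and 22.9 TPM. Heat shock protein genes had a median of 0.19, which ranged from 0.03 without sham day 3 replicate 3 to 0.21 without sham day 1 replicate 2. It was 0.06 without sham day 1 replicate 3, 0.09 without sham day 3 replicate 1 and 0.11 without sham day 3 replicate 2. The small heat shock gene Hsp26 had 8.98, 14.2 and 8.20 TPM on day 1 and 15.7, 117 and 19.2 TPM on day 3, and its difference of 1.61 was 0.72 without replicate 2. The chaperone gene DnaJ-1 was at -0.32. Recognition and signalling genes of the immune pathways were near 0 as lists, at -0.01 for peptidoglycan recognition proteins and 0.00 for signalling genes (-0.14 and 0.05 without sham day 3 replicate 2). In these, PGRP-LF was at 0.72, PGRP-LC at -0.23, grass at 0.57 and Rel at -0.34.

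Ribosomal protein and proteasome genes had medians slightly above 0. Of 82 cytosolic ribosomal protein genes tested, 70 were above 0, against 42.1% of all genes tested, with a median of 0.12, and limma gave 0 of them an unadjusted p under 0.05. The median was 0.05 without sham day 1 replicate 2, 0.06 without sham day 3 replicate 1 and 0.18 without replicate 3 of either day. Their summed level was 250000, 238200 and 287800 TPM on day 1 and 312000, 276300 and 247600 TPM on day 3, so the days overlapped. RpL30 was at 0.30 and RpS21 at 0.42. Of 33 proteasome subunit genes, 28 were above 0 with a median of 0.14, which was 0.01 with 17 of 33 above 0 when sham day 3 replicate 2 was left out and 0.32 when sham day 3 replicate 1 was. Without sham day 3 replicate 3 and sham day 1 replicate 1 it was 0.09 each. Prosbeta4 was at 1.32 and Prosbeta3 at 0.41 (0.24 without sham day 3 replicate 2).

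The digestive protease list had the largest median of all lists, 0.95, with 22 of 22 tested genes above 0, and this rested on sham day 3 replicate 2. The filter asked for a mean of at least 1 TPM over all 17 libraries. Members such as betaTry and Jon99Fii passed it only through sham day 3 replicate 2 and injured libraries. The count above 0 was therefore partly set by the filter. Without that library the median was 0.00, with 6 genes above and 7 below 0. Jon65Aiv, a serine protease gene, was listed at 0 in all day 1 libraries and had 0.476, 104 and 0.297 TPM on day 3. Its difference of 2.55 was 0.47 without the library, and that of betaTry went from 2.29 to 0.00. Among the 6 libraries, the metallothionein genes MtnC and MtnE had their only high values in sham day 3 replicate 2, at 506 and 150 TPM. Their differences of 2.61 and 1.04 were -0.39 and -0.17 without it. In injured flies MtnC had 116, 149 and 30.3 TPM on day 1 and 127.5 TPM in day 7 replicate 1.

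**Figure D3:**
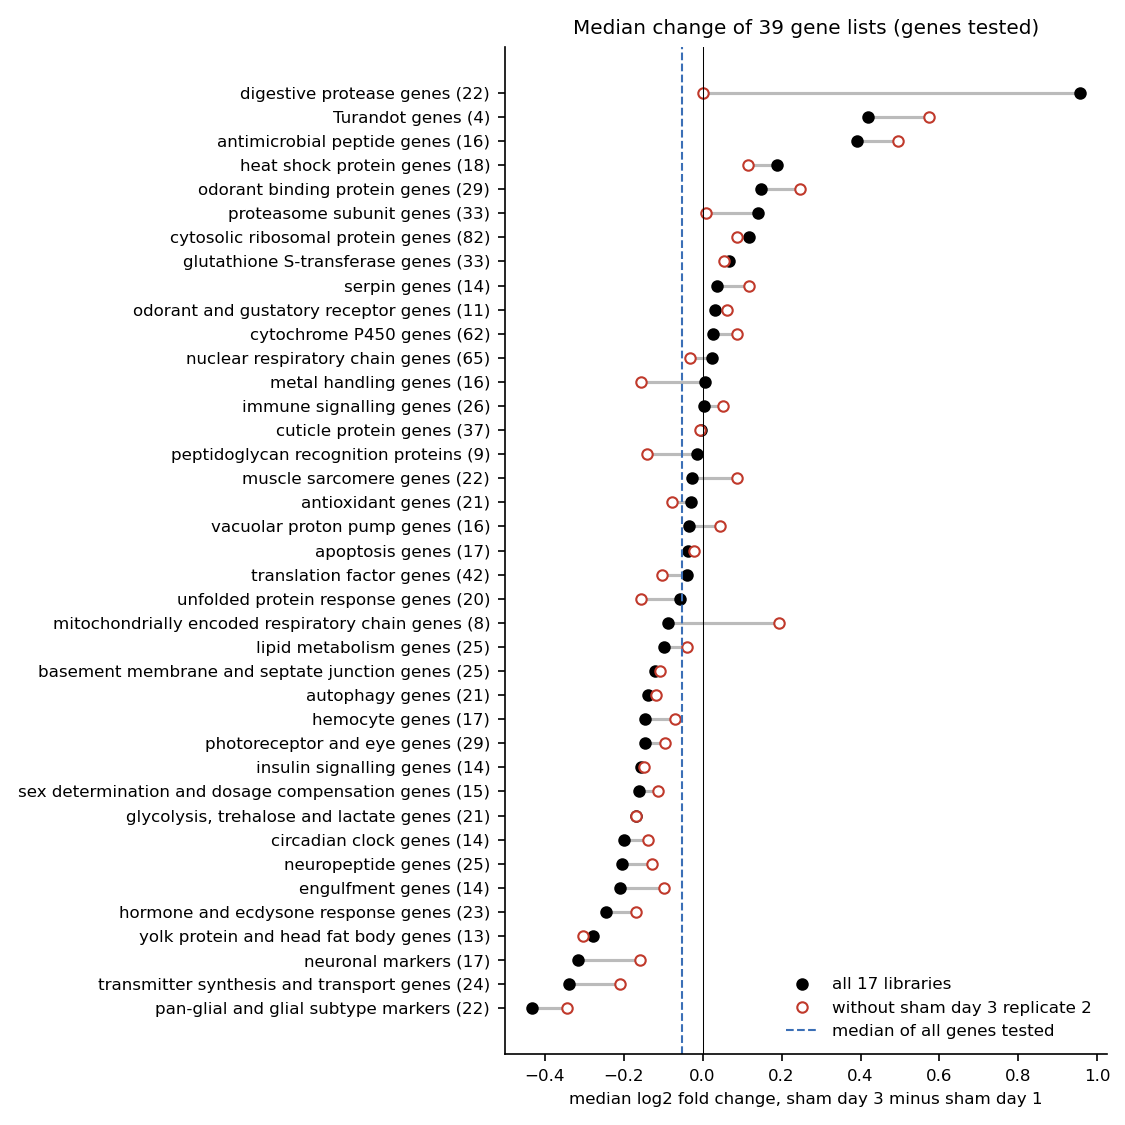
Median log2 fold change, sham day 3 minus sham day 1, of each gene list (number of genes tested in parentheses) with all 17 libraries in the fit (black) and without sham day 3 replicate 2 (open red), and the median of all genes tested (dashed line, -0.05). Glial markers lie lowest at -0.43 and stay at -0.34 without the library, whereas digestive proteases move from 0.95 to 0.00.

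The remaining lists stayed between -0.25 and 0.15. Hormone and ecdysone response genes had a median of -0.25, with 20 of 23 below 0, and their lowest p were in the ecdysone-induced genes E23 at -0.65 and Eip75B at -0.41 (-0.27 without sham day 3 replicate 2). Circadian clock genes had a median of -0.20 at this single time of day. The clock kinase genes sgg and dco were at -0.45 and -1.20, while tim was at 0.08 and per at -0.20, all with overlapping groups. Engulfment genes were at -0.21 with 13 of 14 below 0, and at -0.10 with 11 of 14 below 0 without sham day 3 replicate 2. Among them the metalloproteinase inhibitor gene Timp was at -0.37 and the JNK phosphatase gene puc at -0.45. Hemocyte genes had a median of -0.15, and of -0.07 without that library, -0.04 and -0.06 without sham day 1 replicates 1 and 2. The GATA factor gene srp had 4.02, 5.68 and 3.07 TPM on day 1 and 0.580, 1.95 and 0.550 TPM on day 3 with no overlap, and the collagen gene vkg was at -0.43.

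Autophagy genes were at -0.14 as a list. Of 21 tested, 2 had an unadjusted p under 0.05 and both were above 0, against 0.787% of all genes tested. Atg12, a conjugation protein gene, had 54.8, 71.6 and 56.5 TPM on day 1 and 75.8, 73.7 and 90.7 TPM on day 3, and Atg8a, which encodes the autophagosome marker, differed by 0.61. In lipid metabolism, with a median of -0.10 (-0.04 without sham day 3 replicate 2), the triglyceride synthesis gene Dgat2 was low but separate, at 0.591, 0.438 and 0.349 TPM on day 1 and 1.62, 1.76 and 1.62 TPM on day 3. The acetyl-CoA carboxylase gene ACC was at 1.29. Basement membrane and septate junction genes were at -0.12, with Glt at -0.36 and 4 of 25 members lower without overlap (16.0%, against 4.81% of all genes tested). The sex determination and dosage compensation list, to which the yolk protein genes also belong, was at -0.16 with ix at 0.44.

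Odorant binding protein genes had a median of 0.15 (0.25 without sham day 3 replicate 2) and glutathione S-transferase genes one of 0.07. Obp56g was the more abundant of the named members, with 138, 172 and 217 TPM on day 1 and 362, 215 and 272 TPM on day 3. The transferase genes GstD11 and GstE5 were at 0.79 and 0.66. In the cytochrome P450 list (median 0.03, and 0.09 without that library), Cyp28d1 had 369, 343 and 335 TPM on day 1 and 257, 248 and 306 TPM on day 3 with no overlap, and Cyp28c1 was at -0.54. Among serpins (0.04, and 0.12 without it), Spn77Ba was at 1.61 with 1 day 1 library listed near 0, and Spn42De at -0.36 (-0.23 without it). Cuticle protein genes were at 0.00, with Lcp65Ag2 at -1.19.

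The other medians also lay near that of all genes. They were -0.03 for muscle sarcomere genes, with TpnC47D at 0.89 and Mlp60A at 0.49, and -0.03 for antioxidant genes, with Sod3 at -0.42. Metal handling genes were at 0.01, unfolded protein response genes at -0.06 with Hsc70-3 at -0.49 and sip3 at -0.32, and apoptosis genes at -0.04 with egr at -0.41 and Diap1 at -0.22. Nuclear respiratory chain genes were at 0.02 with ND-B14.5A at 0.80 and COX7AL at 0.55. The mitochondrially encoded ones were at -0.09 with mt:ND4L at -0.25 and mt:ND6 at -0.22, and at 0.19 without sham day 3 replicate 2, where these genes were at -0.07 and 0.02. Vacuolar proton pump genes were at -0.03 with VhaM9.7-b at 0.24 and Vha100-1 at -0.30. Translation factor genes were at -0.04 with eIF4H1 at -0.29 and eEF1alpha2 at -0.27, and odorant and gustatory receptor genes at 0.03 with Or43b at -0.38 and Gr64e at 0.31. Without sham day 3 replicate 2, the medians in this paragraph were 0.09 for muscle, -0.08 for antioxidant, -0.16 for metal handling, -0.16 for unfolded protein response, -0.02 for apoptosis, -0.03 for nuclear respiratory chain, 0.04 for proton pump, -0.10 for translation factor and 0.06 for receptor genes. TpnC47D was then at 0.56, ND-B14.5A at 0.48, eEF1alpha2 at -0.16 and Gr64e at 0.59. The list medians that changed sign under at least 1 alternative were those of muscle, peptidoglycan recognition, antioxidant, metal handling, unfolded protein response, apoptosis, basement membrane, immune signalling, cuticle, cytochrome P450, serpin, digestive protease, proton pump, translation factor, receptor and both kinds of respiratory chain genes. The medians of the other lists kept their sign under all alternatives run.

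Injured flies of the same days, collected in parallel and measured in libraries outside the 6, were set beside these changes. Over 8766 genes, which are not independent of each other, the change in uninjured flies and that in injured flies had a Pearson correlation of -0.44 and a Spearman correlation of -0.21. Without sham day 3 replicate 2 these were -0.02 and 0.01. Of the 154 genes lower in uninjured flies at an unadjusted p under 0.05, 89 were also lower in injured flies (57.8%), against 48.7% of all genes tested. Of the 69 higher genes, 34 were higher (49.3%, against 51.1%).

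The named lower genes mostly had the same sign in injured flies. Of the 12, 11 were below 0, against 48.7% of all genes tested, though ltl at -0.057 and CG7694 at -0.115 were close to 0. CG10621 was the exception at 0.59. In limma 4 had an unadjusted p under 0.05, namely MFS9 at -0.59, Gat at -0.40, slow at -0.69 and CG40470 at -0.48. Of the 12 higher genes, 7 were above 0, against 51.1% of all genes tested. Here too 4 were under 0.05, namely CG14105 at 0.85, Obp83ef at 0.67, Nacalpha at 1.15 and, with the other sign, CG13067 at -0.70. The share of all genes under 0.05 in injured flies was not counted. The median of the glial list was -0.12 in injured flies, that of the neuronal list 0.22 and that of the fat body list 0.38. Antimicrobial peptide and Turandot genes had medians of -1.12 and -2.37 there, against 0.39 and 0.42 in uninjured flies.

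**Figure D4:**
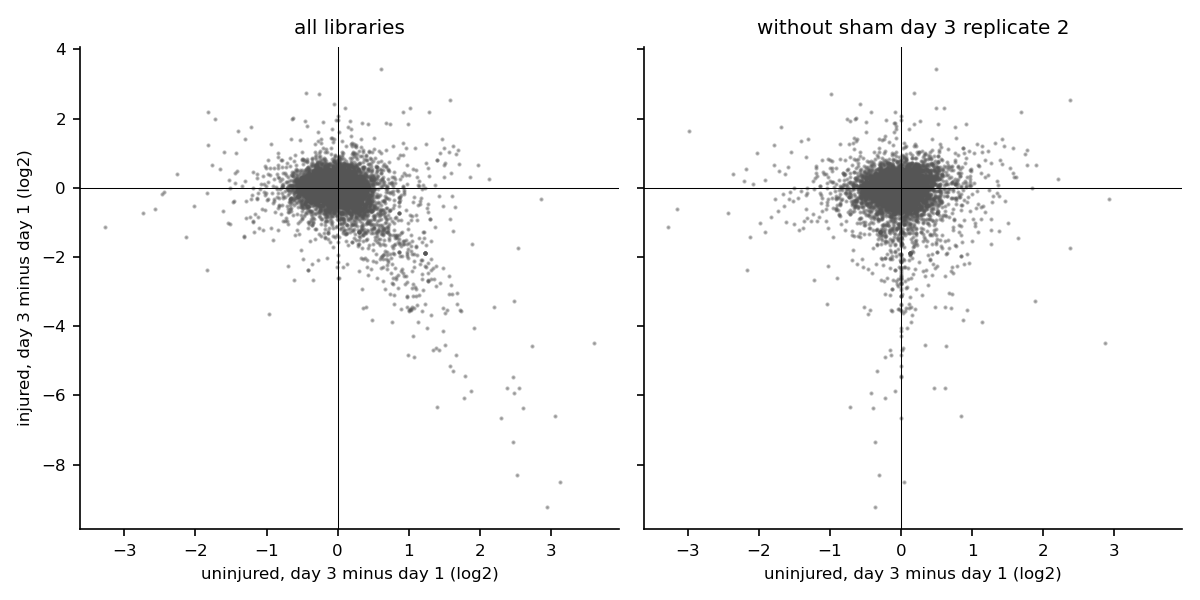
Log2 fold change, day 3 minus day 1, of 8766 genes in uninjured flies (horizontal) and in injured flies (vertical), with all libraries (left) and without sham day 3 replicate 2 (right). The tail of genes toward the lower right in the left panel lies along the vertical axis in the right panel, and the Pearson correlation goes from -0.44 to -0.02.

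The change between the days differed between injured and uninjured flies for 11 of 8766 genes (0.125%) by the interaction test in limma, while 583 genes (6.65%) were under 0.05 before adjustment. For all 11 the difference, injured minus uninjured, was below 0. They included the stress peptide genes TotA and TotX, the lipid gene Dgat2 and the cuticle genes Ccp84Ab, Cpr49Ab and Acp1. Of the 11, Ccp84Ab and CG9673 reached the filter's mean of 1 TPM over the 17 libraries only with the injured day 1 libraries. The sign of their differences was therefore partly set by the filter. Dgat2 had 8.98, 10.3 and 7.07 TPM in injured flies on day 1 and 0.673, 2.10 and 1.92 TPM on day 3, so that it was lower on the later day there and higher in uninjured flies. The difference was -2.84 (SE 0.40, limma adjusted p = 0.0288). TotX had 189, 96.7 and 163 TPM in injured flies on day 1 and 37.5, 33.3 and 28.3 TPM on day 3, against the range of 15.1 to 22.9 TPM in the uninjured libraries of both days, with a difference of -2.51 (SE 0.41, limma adjusted p = 0.0340). For both genes the injured day 1 libraries were the high ones.

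This count rested on single libraries. It was 0 without sham day 1 replicate 2, 56 without sham day 3 replicate 1 and 19 without sham day 3 replicate 2, and all 11 genes were among the calls of the last 2 fits. When the 4 libraries with germline transcripts (sham day 3 replicate 2, TBI day 1 replicates 2 and 3, and TBI day 7 replicate 1) were left out together, an alternative chosen after seeing the data, 136 genes were called, with 10 of the 11 among them. That fit held 1 library for TBI day 1 and 1 for TBI day 7, each assumed to vary like the other groups.

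**Figure D5:**
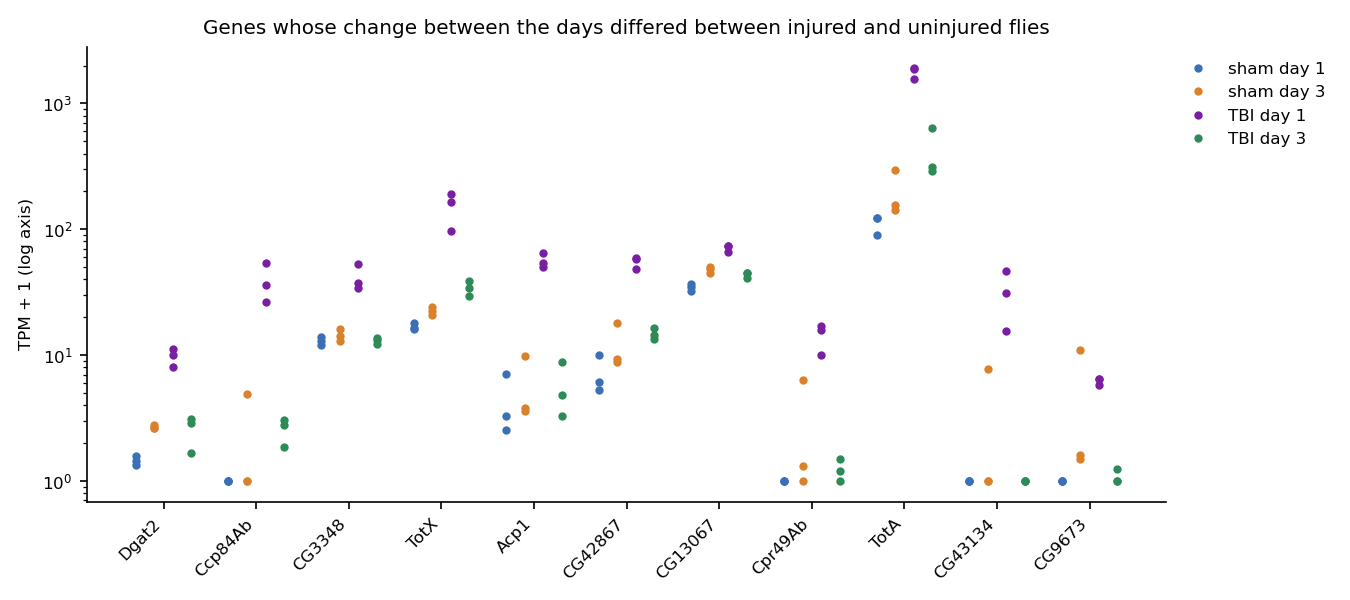
TPM + 1 (log axis) of the 11 genes whose change between day 1 and day 3 differed between injured and uninjured flies, in the 3 libraries of each of the 4 groups. The TBI day 1 libraries (purple) lie above the other groups for all genes except CG9673, where sham day 3 replicate 2 is highest at 9.91 TPM.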

How the data were processed

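The authors sequenced T7-amplified cDNA of GFP-bound ribosomes as single-end reads, quantified them with kallisto against FlyBase release 6 transcripts and summed transcripts to genes with tximport. The deposited values are TPM. Replicates were not pooled, and 1 injured library of day 7 is not used here. Gene names were taken from a reference table (13127 genes, 97.4%) or, for 134 others, from tables of the paper, and coordinates from the release 6 annotation, counted from 1. Genes with a mean of at least 1 TPM over the 17 libraries were tested on log2(TPM + 1), where fold changes of low genes are understated, with limma 3.58.1 (R 4.3.3). The fit had a mean for each of the 6 groups and trended empirical Bayes moderation, and p-values were adjusted by Benjamini-Hochberg over all genes. The fit was also run on simulated data whose noise was independent between genes and, for each gene, equally spread in all libraries. No simulated library stood apart as sham day 3 replicate 2 does, so that situation was not tested. The members and lists were chosen with earlier results of these data known. Named genes were, per direction, those called, followed up to 12 by the lowest p among genes averaging 10 TPM or more without overlap, the 2 lowest p of each list, and the interaction calls. The interaction rule named the 5 lowest p, and the other 6 were added after their values were seen, as were CG11041, Gdh, Gabat, Gfat1, Drs, tim and per. Alternatives covered sample sets, replicate block, scaling, pseudocount, filter, library weights, thresholds and each replicate left out. Figures used matplotlib 3.10.9 under Python 3.11.15.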

Additional observations from a re-analysis of the deposited data

Results flagged for a closer look

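The change between day 1 and day 3 differed between injured and uninjured flies in 11 genes by the interaction test in limma, at an adjusted p of 0.0288 to 0.0945. The differences, injured minus uninjured on the log2 scale, were -2.84 for Dgat2, -4.65 for Ccp84Ab, -1.79 for CG3348, -2.51 for TotX, -3.84 for Acp1 and -2.65 for CG42867. They were -1.17 for CG13067, -4.53 for Cpr49Ab, -2.97 for TotA, -5.82 for CG43134 and -4.10 for CG9673. For all 11 genes except CG9673, every injured day 1 library lay above the 6 uninjured libraries. Acp1, for example, had 49.4, 63.8 and 52.9 TPM, against at most 8.82 TPM in the 6 uninjured libraries. CG9673 had 5.45, 5.49 and 4.80 TPM in injured flies on day 1, under the 9.91 TPM of sham day 3 replicate 2. Both Ccp84Ab and CG9673 passed the expression filter only with the injured day 1 libraries, which partly set the sign of their differences. CG43134, CG9673 and Cpr49Ab, listed at 0 in every sham day 1 library, reached 6.82, 9.91 and 5.30 TPM in sham day 3 replicate 2, so that their uninjured values of 0.99, 1.57 and 1.02 became 0.00, 0.63 and 0.20 without it. Without the same library the uninjured values of Ccp84Ab, CG3348 and Acp1 went from 0.76, 0.15 and 0.40 to 1.15, 0.23 and 0.62. None of the uninjured changes of these genes passed on its own.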

How the results depend on the processing

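Of 21 alternatives, 3 chosen after seeing the data, most left the uninjured comparison at 0 calls. It had 2 calls when all 12665 genes above 0 TPM were tested (CG11041 and CG43750, lower), 3 with library weights (CG11041, MFS9 and Gat, lower), a fit whose weights did not converge, 2 in the 6 sham libraries without sham day 3 replicate 2 (Argl and CG5773, lower) and 1 with robust moderation without the trend (CG11041). Leaving out 1 replicate gave 0 to 1 calls, the 1 being atms without sham day 1 replicate 3. At an unadjusted p under 0.05 the main 223 genes became 344 with all genes and 855 with weights. The interaction count of 11 became 22 with upper-quartile factors, 3 and 18 with pseudocounts of 0.1 and 5 TPM, 7 with all genes above 0 TPM, 6 with a mean of at least 10 TPM, 1140 with weights, 4 at stricter thresholds (log2 difference of 1, adjusted p of 0.05), 5 with robust moderation and 136 without the 4 libraries with germline transcripts. Leaving out 1 replicate gave 0 to 56. Signs turned without sham day 1 replicate 1 for Or43b (leave-one-out range -0.658 to 0.001), without sham day 3 replicate 1 for Gr64e (-0.104 to 0.592) and Acp1 (-0.067 to 0.834), and in the 3 fits without sham day 3 replicate 2 for MtnE (-0.171 in each, up to 1.70), MtnC (-0.39 in each, up to 4.10) and mt:ND6 (0.018 in each, down to -0.576). By correlation, replicate numbers paired the days for replicate 1 only. The paper corrects for batch among replicates in its comparison of TBI with control. Same-numbered libraries had correlations of 0.30, 0.00 and -0.01 after removal of group means, and only replicate 1 correlated best with its own number. With the replicate block, 0 genes were called in the 6 libraries and in all 17, with 329 and 443 at an unadjusted p under 0.05, and the interaction had 13 calls. TPM keeps no depth, so what depth limits cannot be given.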

Other observations

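The germline and egg genes that were high in sham day 3 replicate 2 were also high in 3 injured libraries. The list, put together after the values were seen, added up to 1137 TPM in TBI day 1 replicate 2, 938 TPM in TBI day 1 replicate 3 and 3059 TPM in TBI day 7 replicate 1, against 11.7 TPM in TBI day 1 replicate 1. The germline gene dhd had 558 TPM in sham day 3 replicate 2 and 551, 480 and 1541 TPM in those 3 libraries, and at most 1.21 TPM in the other 13. The meiotic regulator gene mtrm followed the same libraries, with 35.9 TPM and then 38.5, 35.8 and 150 TPM. The eggshell genes Cp36 and Cp38 were at or under 0.443 TPM in all 17 libraries. Other eggshell genes of the list, Vm26Aa and Vm26Ab, had 14.7 and 5.25 TPM in TBI day 1 replicate 3. They were at or under 0.856 TPM in every other library. Which flies or steps these transcripts came from was not tested.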
